A study of Mus musculus with 6 samples.

Results

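The antioxidant genes described here are 32 genes of the enzymes and metal-binding proteins that remove reactive oxygen species. They were chosen by symbol, and all 32 were found among the 37477 Ensembl IDs of the deposited count table. They comprise superoxide dismutases and catalase, glutathione peroxidases, peroxiredoxins, the thioredoxin system, glutathione synthesis and transfer enzymes, the regulator NRF2 with its partner KEAP1 and targets, and 2 metallothioneins. RNA came from muscle labelled quadriceps of 20-week-old C57BL/6 mice. Knockout (KO) mice, called MERKO by the submitters, lacked estrogen receptor alpha in muscle only, and wild-type (WT) mice were set against them. Each group held 3 libraries. The sources used here do not give the driver of the deletion, the substrain or the number of animals behind a library. The p-values therefore reflect only how these libraries vary, which may be technical.

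Contracting muscle produces superoxide in its mitochondria and at its membranes. Superoxide dismutases turn superoxide into hydrogen peroxide, which catalase, glutathione peroxidases and peroxiredoxins then remove. Thioredoxin and glutathione supply the electrons to peroxiredoxins and glutathione peroxidases, and are recharged with NADPH. KEAP1 holds the transcription factor NRF2 (gene Nfe2l2) at a low level until oxidants or electrophiles release it to act at antioxidant response elements. Metallothioneins are small cysteine-rich proteins that bind zinc and copper, and their genes are switched on by zinc through metal response elements and by glucocorticoids.

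Libraries held 7388365 to 8560244 counts, and KO replicate 1 was the deepest. Values below are CPM, counts scaled to a common library size after TMM, a correction for differences in RNA composition. Differences are log2 values of KO minus WT from edgeR's quasi-likelihood test over 13848 genes, adjusted by Benjamini-Hochberg. The knocked-out gene Esr1 had 2.60, 1.93 and 1.98 CPM in KO replicates 1, 2 and 3, against 6.70, 5.61 and 5.58 CPM in WT replicates 1, 2 and 3, so the labels matched the targeted gene, with no overlap between groups. Its log2 difference was -1.45 ± 0.23 (SE) with an adjusted p of 0.145, the smallest of all genes, which did not pass. Skeletal muscle genes marked the tissue, with 10285 ± 261 CPM per kb of exon for the actin gene Acta1 in KO and 10093 ± 1128 in WT (SD, n = 3 each). Among myosin heavy chains the slow form Myh7 was at 2440 ± 138 CPM per kb in KO and 2524 ± 306 in WT, and the fast form Myh4, which was lower in both genotypes, at 81.6 ± 14.8 in KO and 50.4 ± 20.9 in WT (SD, n = 3 each). Whether this balance of slow and fast forms goes with the quadriceps label was not tested. The neutrophil genes Ly6g, Mpo and Ngp had 0 counts in all 6 libraries.

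Promoters are shown for 4 members. The metallothioneins, shown as a pair, had the same order of the 6 libraries. Gclm and Txnrd1 shared KO replicate 1 as their highest library. They did not move together in WT, where replicate 2 was the highest for Gclm (36.2 CPM) and the lowest for Txnrd1 (47.6 CPM). Nqo1 and Srxn1, also highest in KO replicate 1, had no antioxidant response element core before the start and are not shown. RefSeq promoter windows of build GRCm38.p6, running from 250 bases before to 50 bases after a start, were found for 27 of the 32 members, in 33 windows. Gclc, Hmox1, Sod3, Gsr and Prdx6 had no entry. Only the 250 bases before the start are printed, 5′ to 3′ on the gene's own strand, here the plus strand for all 4. Capitals mark a metal response element core (TGCGCNC or TGCACNC, either strand) in Mt1 and Mt2, and an antioxidant response element core (TGACNNNGC, either strand) in Gclm and Txnrd1. The windows lie at chr8:94178839-94179088 for Mt1, chr8:94172368-94172617 for Mt2, chr3:122245307-122245556 for Gclm and chr10:82858956-82859205 for Txnrd1.
Mt1: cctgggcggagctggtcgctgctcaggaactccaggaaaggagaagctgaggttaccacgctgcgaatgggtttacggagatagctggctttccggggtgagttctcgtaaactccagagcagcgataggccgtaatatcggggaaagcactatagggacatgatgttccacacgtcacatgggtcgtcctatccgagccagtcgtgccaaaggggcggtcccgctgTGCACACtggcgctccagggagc
Mt2: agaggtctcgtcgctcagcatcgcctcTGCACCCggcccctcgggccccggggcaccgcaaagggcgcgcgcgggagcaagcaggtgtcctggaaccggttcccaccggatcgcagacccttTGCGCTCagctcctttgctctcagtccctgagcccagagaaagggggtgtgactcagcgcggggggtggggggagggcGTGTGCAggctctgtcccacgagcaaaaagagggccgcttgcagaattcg
Gclm: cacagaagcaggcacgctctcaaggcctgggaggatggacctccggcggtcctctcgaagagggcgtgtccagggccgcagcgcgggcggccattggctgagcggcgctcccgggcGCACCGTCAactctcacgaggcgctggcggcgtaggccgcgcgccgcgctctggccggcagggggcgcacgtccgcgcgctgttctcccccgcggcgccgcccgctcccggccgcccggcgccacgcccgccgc
Txnrd1: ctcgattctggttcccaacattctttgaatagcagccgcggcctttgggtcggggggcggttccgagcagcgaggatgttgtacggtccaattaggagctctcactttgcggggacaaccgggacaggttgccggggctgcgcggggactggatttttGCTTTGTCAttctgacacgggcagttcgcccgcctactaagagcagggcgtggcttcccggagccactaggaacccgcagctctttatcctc

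In Mt1 the core in capitals starts 23 bases before the RefSeq start, and the letters also occur from base 3 and from base 21 after it. Mt2 held 3 such cores before its start and another from base 5 after it, and also the antioxidant response element core TGACTCAGC, 79 bases before its start. Gclm had its antioxidant response element core 134 bases before its start, where it overlaps a metal response element core. In Txnrd1 the core lay 92 bases before the start shown, and the other 2 annotated starts of this gene held none. The antioxidant response element core occurred in 8 of the 33 member windows, in Gsta3, Nfe2l2, Srxn1, Gclm, Prdx1, Mt2, Txnrd1 and Sod1, and in 12.4% of 32851 promoter windows of all genes. Metal response element cores occurred in 9 of the 33 windows and in 25.7% of all windows. The estrogen response element (GGTCA, any 3 bases, TGACC), searched because the receptor was removed, occurred in 0 of the 33 windows and in 0.07% of all windows. A motif this rare is not likely to occur in 33 windows, so its absence says nothing about the members. Matches to any of these motifs describe letters and are not evidence of binding.

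Levels per kb of exon spanned a wide range and were led by the peroxide-removing enzymes in both genotypes. This order depends on the length used, that of all annotated exons of a gene merged. By CPM alone Sod2, with 10008 exonic bases, was the highest member, at a mean of 203 in KO and 201 in WT. Prdx3, the mitochondrial peroxiredoxin, was at 91.3 ± 2.71 CPM per kb in KO and 85.5 ± 2.09 in WT, followed by catalase (Cat) at 73.6 ± 10.6 in KO and 73.5 ± 6.66 in WT (SD, n = 3 each). Gpx4, which reduces lipid peroxides in membranes, came next at 63.3 ± 2.94 CPM per kb in KO and 59.0 ± 1.96 in WT (SD, n = 3 each). Nqo1 and Prdx5 were then level within their spread, at 38.2 ± 12.3 and 38.0 ± 1.70 CPM per kb in KO, and 32.8 ± 0.953 and 35.4 ± 0.204 in WT (SD, n = 3 each). At the low end stood Sod3, Txnrd2, Gpx7 and Gsta3. Gsta3, a glutathione S-transferase of the alpha class, had 6, 3 and 3 counts in KO replicates 1, 2 and 3, against 4, 7 and 4 in WT, and was not tested. The other 31 members passed the filter on low counts. Gpx7 passed through its KO libraries, of which 3 met the minimum, against 1 WT library.

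No member was called higher or lower in KO, which does not show that no member changed. By the same test the deleted gene Esr1 did not pass either. With edgeR's quasi-likelihood test and a threshold of 0.05 on the adjusted p, 0 of the 31 tested were higher and 0 lower, where the background over all genes was 0% in each direction, and DESeq2 and limma voom also called 0 members. At an unadjusted p under 0.05 there were 3 members with higher KO values, Gpx8, Prdx1 and Txn2, against a background of 1.99%, and 0 with lower values, against 2.27%. Every KO library exceeded every WT library for 9 members, against a background of 4.96%, and every KO library was lower for 1, Gclc, against 5.45%. The log2 difference was above 0 for 27 of the 31, against 49.3% of all genes, with a median of 0.10 beside 0.00 over all genes; the 27 include Cat, whose difference rounds to 0.00. The count of 9 and the count of 27 include Gpx7, which passed the filter through its KO libraries, where it is high; without Gpx7 they were 8 and 26 of 30 members. The members were measured in the same 6 libraries, so this count holds no independent trials. Without KO replicate 1 the count was 22 and the median 0.08. In the authors' deposited table the adjusted p was 1.0 for all 32.

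The intervals show how far these data reach. For 26 of the 31 the 95% interval of the difference lay within a 2-fold change in either direction, and for 22 within a 1.5-fold change. The median exon length of the tested members was 2754 bases, against 4182 over all genes with a length, and the log2 difference fell with length across genes (Spearman rho -0.19 a description only, since genes do not replicate each other). With an offset for exonic length, 25 members were above 0 with a median of 0.10.

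**Figure D1:**
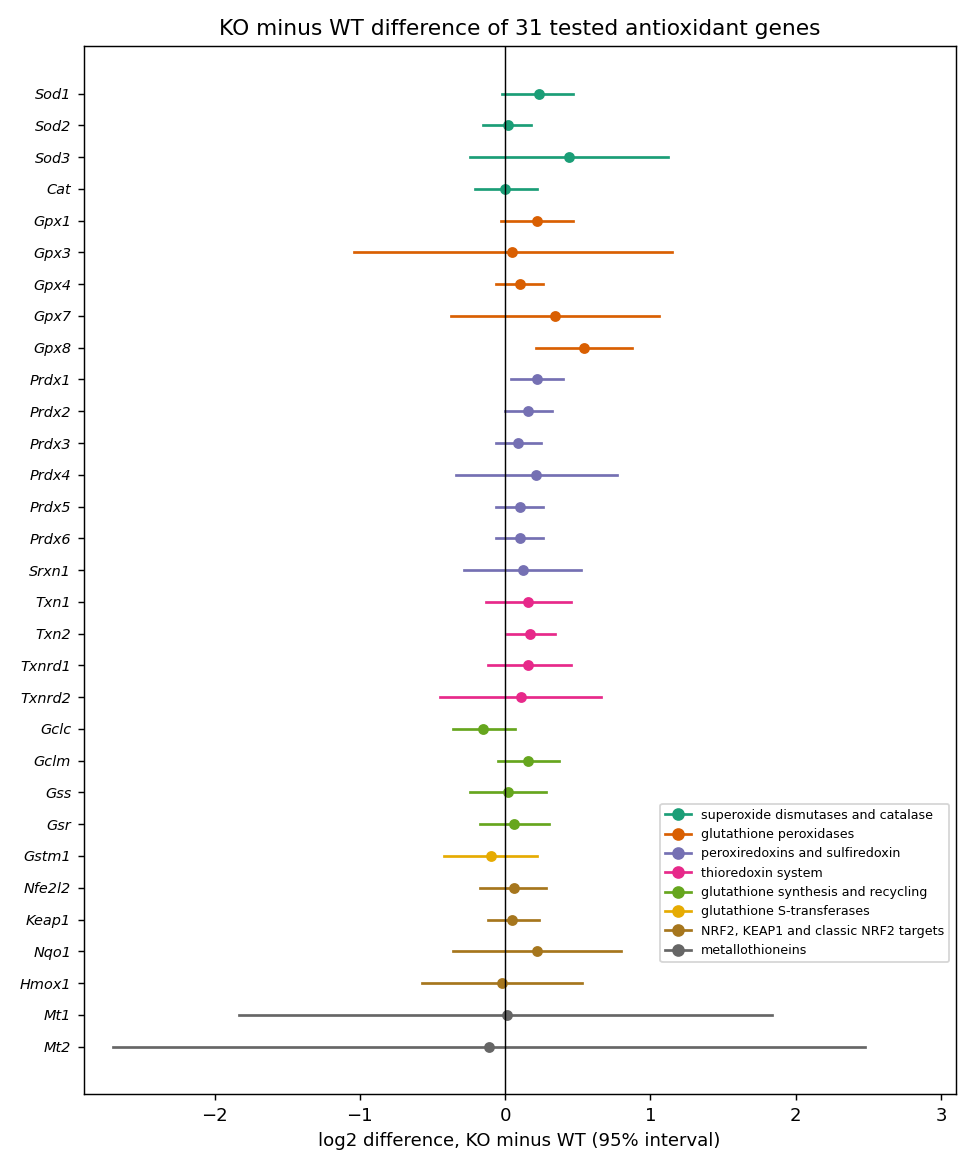
Log2 difference of KO minus WT (horizontal axis) for the 31 tested members, in order of role and coloured by it. Points are estimates from edgeR's quasi-likelihood fit and lines their 95% intervals; Gpx8, Prdx1 and Txn2 have intervals above 0, none passes adjustment over all genes, and Mt1 and Mt2 have the widest.

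Among the superoxide dismutases, the groups were separate for the cytosolic copper-zinc form and overlapped for the mitochondrial manganese form. Sod1, the cytosolic enzyme, had 16.9, 18.2 and 18.9 CPM in KO replicates 1, 2 and 3, against 16.3, 15.5 and 14.5 CPM in WT replicates 1, 2 and 3. The groups did not overlap, though KO replicate 1 and WT replicate 1 lay close together, and the log2 difference was 0.23 ± 0.12 (SE), with an unadjusted p of 0.0695 (adjusted p = 0.989.) Sod2, the mitochondrial enzyme, had 206, 214 and 188 CPM in KO, against 188, 210.5 and 204 CPM in WT. Its groups covered the same range, and its interval from -0.15 to 0.18 was among the narrowest. Catalase, which breaks down hydrogen peroxide in peroxisomes, had 224, 179.6 and 173 CPM in KO, against 195, 174 and 208 CPM in WT, with a log2 difference of 0.00 ± 0.10 (SE). Sod3, the secreted form, rested on 61 counts in KO and 41 in WT, and its difference of 0.44 had an interval from -0.24 to 1.12. Sod3 moved to 0.79 without WT replicate 3 and to 0.25 without KO replicate 3.

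The glutathione peroxidases held the member with the smallest p. Gpx8 (ENSMUSG00000021760, chromosome 13, 113042753 to 113046410, minus strand, mm10), a membrane-bound peroxidase of the endoplasmic reticulum, had 12.3, 10.3 and 10.5 CPM in KO replicates 1, 2 and 3, against 8.17, 6.70 and 7.86 CPM in WT replicates 1, 2 and 3. Every KO value lay above every WT value. Its KO level was 1.45 times the WT level, with a log2 interval from 0.21 to 0.87, an unadjusted p of 0.00301 (adjusted p = 0.989), which did not pass; the adjusted p ran from 0.442 to 1.0 over the 15 alternatives. In the authors' deposited table Gpx8 had a log2 fold change of 0.56 and an unadjusted p of 0.00176. Leaving out any library gave values from 0.45 to 0.60.

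Gpx7, the other peroxidase of the endoplasmic reticulum, had 12, 13 and 14 counts in KO, against 10, 9 and 9 in WT, so that its difference of 0.34 had an interval from -0.37 to 1.06. Gpx1, the main cytosolic selenoenzyme of the family, had 16.0, 14.9 and 16.3 CPM in KO replicates 1, 2 and 3, against 13.7, 13.4 and 13.4 CPM in WT. The 3 WT libraries were almost equal and all lay below the KO libraries, yet the difference of 0.22 ± 0.12 (SE) had an unadjusted p of 0.0855. Gpx4 differed by 0.10, with an interval from -0.06 to 0.26. Gpx3, the form secreted into plasma, was the most spread of the family. It had 10.3, 16.8 and 8.54 CPM in KO, against 11.0, 6.56 and 16.6 CPM in WT, so that KO replicate 2 and WT replicate 3 stood high and the interval ran from -1.04 to 1.15. Its difference was -0.28 without KO replicate 2 and 0.43 without WT replicate 3.

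**Figure D2:**
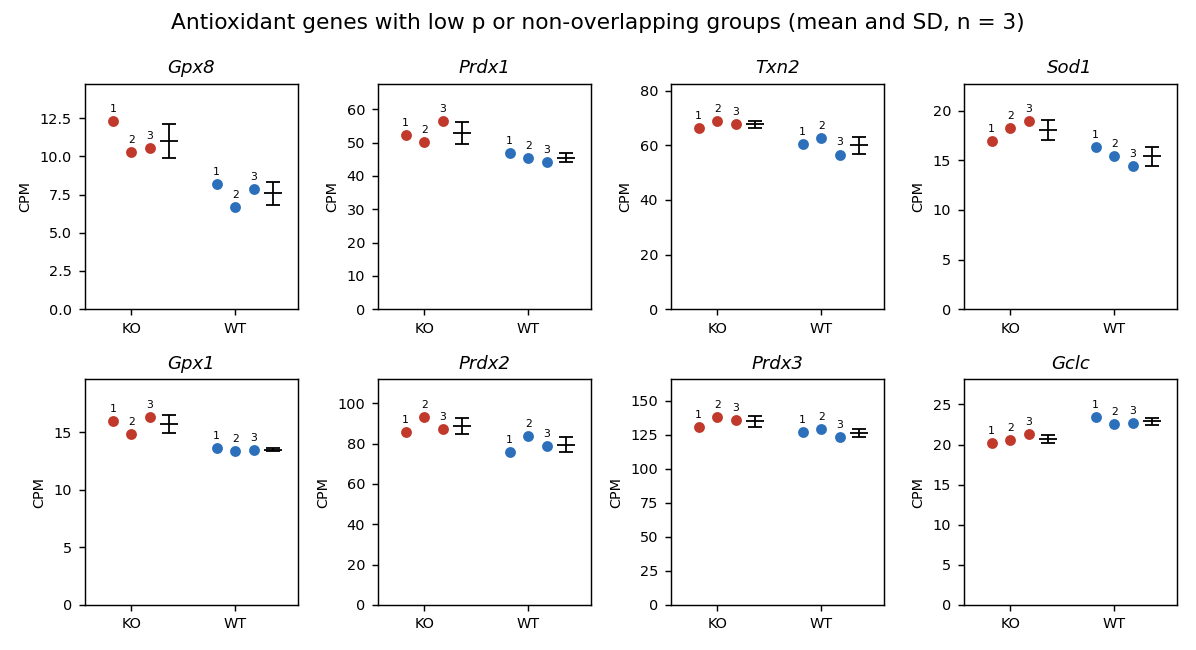
CPM (vertical axis, from 0) in each KO and WT library for 8 members of low p or without overlap between groups; numbers are replicates and bars are the mean and SD (n = 3). Gclc is lower in every KO library and the other 7 are higher in every KO library, by small margins except for Gpx8.

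Peroxiredoxins reduce hydrogen peroxide with a reactive cysteine and, apart from Prdx4, varied little within each genotype. Prdx1, a cytosolic form, had 52.3, 50.1 and 56.5 CPM in KO replicates 1, 2 and 3, against 46.9, 45.3 and 44.2 CPM in WT. Its groups were separate, with a log2 difference of 0.22 ± 0.08 (SE), an interval from 0.04 to 0.40, an unadjusted p of 0.0191 (adjusted p = 0.989.) Prdx2, the form abundant in red blood cells, had 85.7, 93.3 and 87.4 CPM in KO, against 76.1, 83.7 and 78.7 CPM in WT, which also did not overlap (log2 difference 0.16). The summed level of 7 red blood cell genes was 695 to 1707 CPM in KO and 1009 to 1730 CPM in WT, highest in replicate 2 of both groups, as was Prdx2; its part in the Prdx2 values was not tested. Other genes share 11.5% of the exon sequence of Prdx2 and 19.1% of that of Prdx5, and with libraries that do not mark strand such reads are uncertain.

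The mitochondrial Prdx3 had 130.4, 138 and 136 CPM in KO, against 127, 129 and 123 CPM in WT, a difference of 0.09 with an interval from -0.06 to 0.25. Prdx5, found in mitochondria and peroxisomes, also had separate groups with a difference of 0.10, while Prdx6, which also acts on phospholipids, overlapped at 0.10. Prdx4, the form of the endoplasmic reticulum, had 4.85, 4.47 and 5.70 CPM in KO, against 4.15, 2.60 and 6.08 CPM in WT. Both the highest and the lowest library of Prdx4 were WT, and its difference of 0.21 was -0.04 without WT replicate 2 and 0.56 without WT replicate 3.

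In the thioredoxin system the groups were separate for the mitochondrial thioredoxin and overlapped for the cytosolic one. Txn2, mitochondrial thioredoxin, had 66.4, 68.9 and 67.9 CPM in KO replicates 1, 2 and 3, against 60.5, 62.8 and 56.7 CPM in WT. The groups were separate, with a log2 difference of 0.17 ± 0.08 (SE), an interval from 0.01 to 0.34, an unadjusted p of 0.0421 (adjusted p = 0.989.) Txn1, cytosolic thioredoxin, had 14.4, 13.7 and 14.1 CPM in KO, against 14.9, 11.1 and 11.8 CPM in WT, where the highest library was WT replicate 1. The mitochondrial thioredoxin reductase Txnrd2 rested on 26 to 47 counts per library in KO and 25 to 38 in WT, and its interval ran from -0.45 to 0.66.

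Among NRF2 targets, KO replicate 1 was the highest library for Nqo1, Srxn1, Txnrd1 and Gclm, and not for Hmox1, Gclc, Prdx1 or Gstm1; this grouping was made after the values were seen. Nqo1, the quinone reductase and a classic NRF2 target (ENSMUSG00000003849, chromosome 8, 107388225 to 107403206, minus strand, mm10), had 81.1, 45.1 and 51.8 CPM in KO replicates 1, 2 and 3, against 52.6, 49.8 and 50.6 CPM in WT. KO replicate 1 stood far above the rest, while the other 2 KO libraries lay around the WT values. Srxn1, sulfiredoxin, which repairs overoxidised peroxiredoxins, had 42.0, 25.9 and 27.1 CPM in KO, against 29.6, 28.6 and 29.3 CPM in WT. Here the other 2 KO libraries lay below every WT library. Txnrd1, cytosolic thioredoxin reductase, had 67.8, 45.3 and 50.1 CPM in KO, against 48.9, 47.6 and 49.3 CPM in WT. Again KO replicate 1 was the highest and KO replicate 2 the lowest of the 6.

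Gclm, the modifier subunit of the enzyme that starts glutathione synthesis, had 44.4, 34.9 and 37.4 CPM in KO replicates 1, 2 and 3, against 34.3, 36.2 and 34.0 CPM in WT. Nfe2l2 itself had 39.1, 31.1 and 32.1 CPM in KO, against 29.7, 35.3 and 33.2 CPM in WT, so that KO replicate 1 was again the highest. Keap1, which holds NRF2 back, did not follow: it had 51.1, 55.1 and 52.2 CPM in KO, against 52.0, 49.4 and 51.3 CPM in WT. An antisense gene on the other strand overlaps 10.9% of the exonic bases of Keap1. Without KO replicate 1 the log2 differences turned to -0.08 for Nqo1, -0.14 for Srxn1, -0.03 for Txnrd1 and -0.05 for Nfe2l2. With all libraries they were 0.22, 0.12, 0.16 and 0.06. That of Gclm was 0.16 with all libraries and 0.05 without this one. None passed in either case.

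KO replicate 1 was the highest of the 6 libraries for 10 of the 31 members, against 18.3% of all genes. These were Cat, Gpx4, Gpx8, Prdx5, Srxn1, Txnrd1, Gclm, Gsr, Nfe2l2 and Nqo1. A WT library was the highest for 5 members, against 48.5% of all genes. This count was made after the values were seen. KO replicate 1 also had the largest share of counts from the mitochondrial genome, 9.53% against 6.14% to 7.05% in the other KO libraries and 6.94% to 7.46% in WT, and its part in these values was not tested. Macrophages also express these genes, and their marker genes summed to 150.2 CPM in KO replicate 1, against 168 and 161 CPM in the other KO libraries and 119 to 162 CPM in WT.

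**Figure D3:**
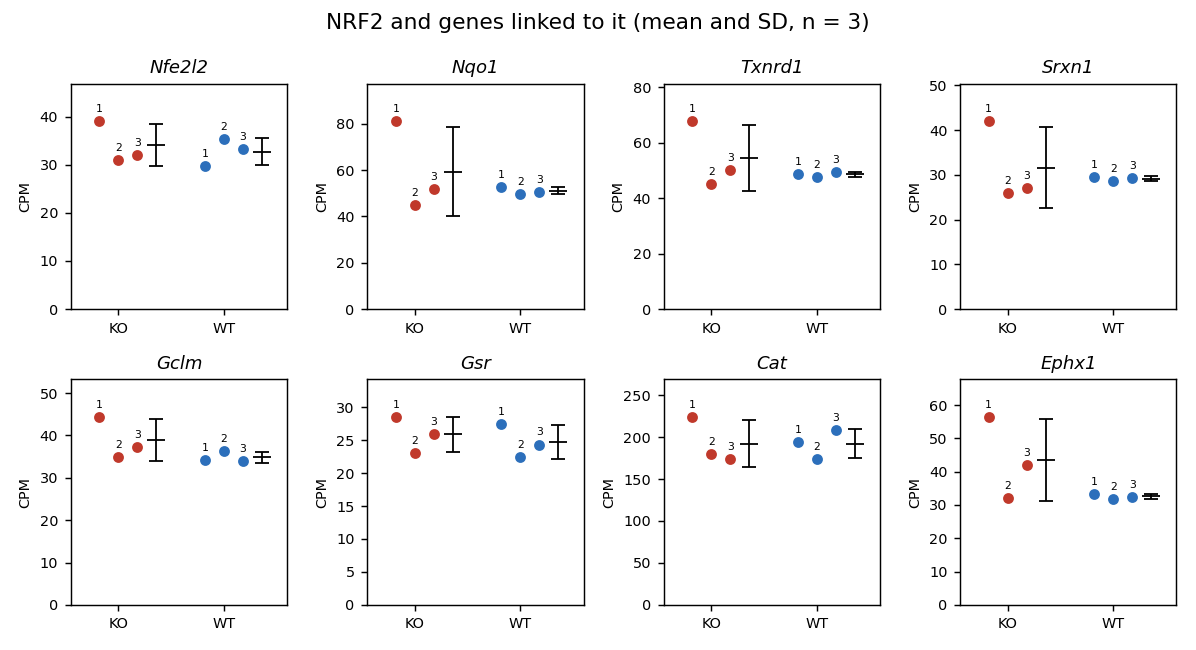
CPM (vertical axis, from 0) in each KO and WT library for Nfe2l2, 6 members and the NRF2 target Ephx1; numbers are replicates and bars are the mean and SD (n = 3). All 8 are genes with KO replicate 1 as the highest library, so that feature follows from the choice of panels. Hmox1, Gclc, Prdx1 and Gstm1, for which it was not the highest, are left out. The gaps are largest for Nqo1, Srxn1, Txnrd1 and Ephx1.

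The remaining glutathione enzymes and Hmox1 showed no separation above WT. Gclc, the catalytic subunit of the same enzyme as Gclm, had 20.2, 20.5 and 21.3 CPM in KO replicates 1, 2 and 3, against 23.4, 22.6 and 22.7 CPM in WT. It was the 1 member with every KO value below every WT value, with a log2 difference of -0.15 ± 0.10 (SE) and an unadjusted p of 0.163. Unlike Gclm, its lowest library was KO replicate 1. Gss, which completes glutathione synthesis, differed by 0.02, and Gsr, which recharges oxidised glutathione, by 0.06, turning to -0.05 for Gss without KO replicate 2 and to -0.01 for Gsr without KO replicate 1. Other genes share 15.4% of the exon sequence of Gss. Gstm1, a glutathione S-transferase of the mu class, had 11.8, 10.6 and 9.78 CPM in KO, against 13.3, 9.85 and 11.5 CPM in WT, and reads shared with its close paralogs could not be separated. Hmox1, which degrades heme and is both an NRF2 and a macrophage gene, had 4.85, 3.75 and 3.34 CPM in KO, against 5.36, 2.73 and 4.06 CPM in WT. KO replicate 1 did not stand above WT for Hmox1.

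The metallothioneins had the largest estimated variation between libraries of any tested member. In WT alone Gpx3 was more spread than Mt1, with an SD of 5.03 about a mean of 11.4 CPM, against 3.92 about 11.5. Mt1 (ENSMUSG00000031765, chromosome 8, 94179082 to 94180327, plus strand, mm10) had 5.56, 22.1 and 6.93 CPM in KO replicates 1, 2 and 3, against 11.5, 15.5 and 7.61 CPM in WT. Mt2 (ENSMUSG00000031762, chromosome 8, 94172664 to 94173568, plus strand, mm10), which ends 5513 bases before Mt1 begins, had 1.54, 10.4 and 1.73 CPM in KO, against 4.29, 7.93 and 2.66 CPM in WT. For both genes KO replicate 2 was the highest library, WT replicate 2 came next, and KO replicates 1 and 3 were the lowest. Between the highest and the lowest library the ratio was 3.98 for Mt1 and 6.75 for Mt2, while for Prdx3 it was 1.12. The estimated variation between libraries beyond counting error (biological coefficient of variation) was 54.8% for Mt1 and 77.4% for Mt2, against medians of 8.71% over the tested members and 9.50% over all genes. Over 50% was reached by 42 of the 13848 genes, 0.303%. An antisense transcript annotated on the other strand overlaps 73.5% of the exonic bases of Mt2, so its counts are uncertain.

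With this spread the genotype difference could not be read with any precision. It was 0.01 ± 0.68 (SE) for Mt1, with an interval from -1.83 to 1.84, and -0.11 ± 0.96 (SE) for Mt2, with an interval from -2.70 to 2.48. Its direction changed when single libraries were left out. Mt1 turned to -0.88 without KO replicate 2 and to -0.22 without WT replicate 3. Mt2 turned to 0.39 without WT replicate 2, 0.31 without KO replicate 1 and 0.27 without KO replicate 3. Without KO replicate 2 Mt2 was -1.58 and had an unadjusted p of 0.00538 (adjusted p = 0.532), the lowest over its alternatives, which ran to 1.0.

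Genes induced by glucocorticoids, which also induce metallothioneins, were high in the same libraries. Of 12 such genes 10 had their highest KO value in replicate 2 and their highest WT value in replicate 2, a pattern found in 13.5% of all genes. The pattern was not particular to them, since all 5 tested red blood cell genes also showed it. The receptor cochaperone Fkbp5 had 11.2, 44.3 and 21.2 CPM in KO replicates 1, 2 and 3, against 31.1, 39.8 and 29.0 CPM in WT. Sgk1, a kinase induced by corticosteroids, had 38.6, 107 and 45.6 CPM in KO, against 61.3, 102 and 26.4 CPM in WT. Both had replicate 2 as the highest library of each genotype, and so did Cebpd and Ddit4. All 4 were named after their values were seen, and their part in the metallothionein values was not tested. Replicate numbers mark no shared day or litter in the labels.

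Genes of metal sensing and transport were read for comparison. Mtf1, the zinc sensor that acts on metal response elements, had 15.7, 17.5 and 17.5 CPM in KO, against 14.9, 17.6 and 17.7 CPM in WT, and its level did not single out replicate 2. The zinc importer Slc39a14, named after its values were seen, did: it had 12.1, 24.4 and 13.4 CPM in KO, against 16.6, 23.4 and 17.0 CPM in WT. Replicate 2 was the highest of its group in both genotypes for 2 of the 19 tested genes of this list, against 13.5% of all genes. Of the 19 tested genes of this list 7 were above 0 and 12 below, with a median of -0.04 and 0 called in either direction. Slc39a3 had the smallest p (log2 difference 0.30, unadjusted p = 0.0621), followed by Slc31a1 (-0.19) and Slc39a1 (0.16), none of which passed in edgeR's quasi-likelihood test.

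**Figure D4:**
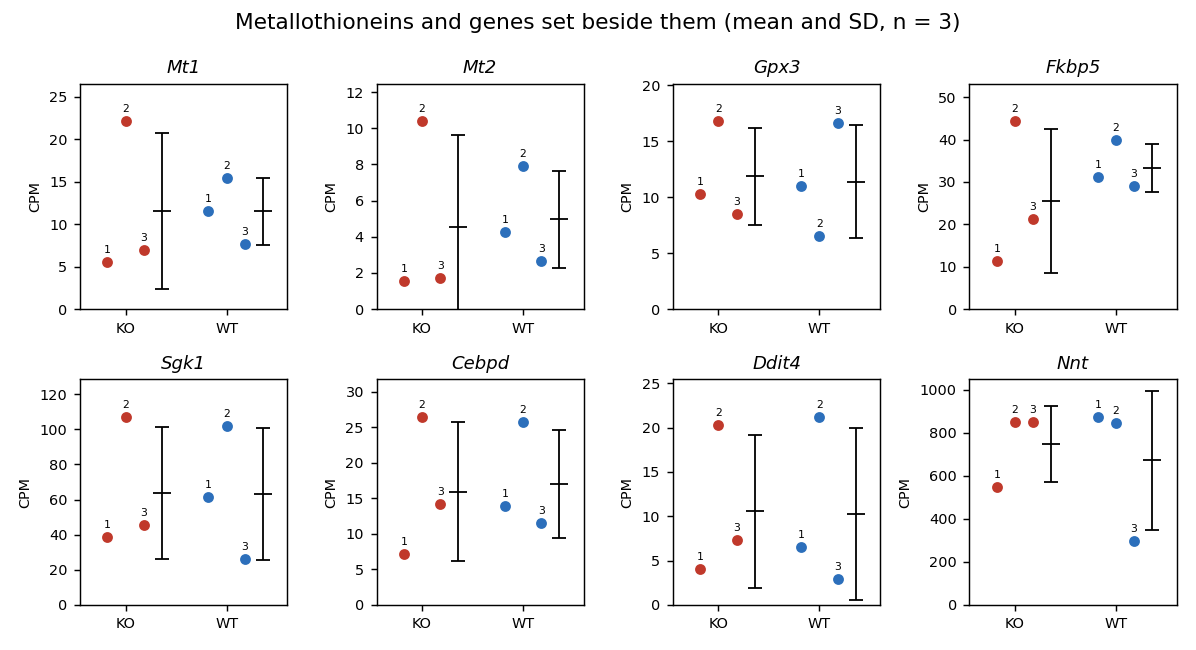
CPM (vertical axis, from 0) in each KO and WT library for Mt1, Mt2, Gpx3, 4 glucocorticoid-induced genes and Nnt; numbers are replicates and bars are the mean and SD (n = 3; the bar of Mt2 in KO reaches below 0 and is drawn only to 0). Replicate 2 is the highest library of both genotypes for Mt1, Mt2, Fkbp5, Sgk1, Cebpd and Ddit4, while Gpx3 and Nnt have other patterns.

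Other genes of the pathway were read from lists of non-members, and 0 genes of any list were called in either direction by edgeR's quasi-likelihood test. Of 19 other NRF2 targets 14 were above 0 and 5 below, with a median of 0.12, and KO replicate 1 was the highest library for 8 of them. Ephx1, an epoxide hydrolase, had 56.4, 32.1 and 42.1 CPM in KO, against 33.4, 31.9 and 32.5 CPM in WT, a difference of 0.42 ± 0.19 (SE) that was 0.19 without KO replicate 1 and 0.60 without KO replicate 2. Its adjusted p was 0.989, and 0.0392 without the filter on low counts. Sqstm1, which competes for KEAP1, differed by 0.16, and Me1, which makes NADPH, by -0.22 with every KO value below WT. Of 15 other glutathione S-transferases 12 were above 0 and 3 below, with a median of 0.15 that was 0.06 without KO replicate 1. Gstt1 led them with 5.56, 3.87 and 4.58 CPM in KO, against 2.95, 2.60 and 3.80 CPM in WT (unadjusted p = 0.0288, adjusted p = 0.989), before Gstm7 (0.36) and Mgst3 (0.16).

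The NRF2 partners and brakes had 4 genes above 0 and 6 below, with a median of -0.05, and Mafk, Btrc and Mafg had the smallest p, none under 0.1. Selenoproteins and the selenocysteine machinery had 6 of 17 above 0 and a median of -0.04, led by Secisbp2 (-0.24), Selk (0.25) and Dio2 (0.29). Glutaredoxins and other thiol repair genes had 14 of 20 above 0 and a median of 0.07. Msrb2, a mitochondrial methionine sulfoxide reductase, had 12.7, 12.1 and 10.2 CPM in KO, against 8.44, 8.75 and 10.1 CPM in WT (unadjusted p = 0.0332, adjusted p = 0.989), ahead of Msra (0.27) and Txndc17 (0.22). Enzymes that produce oxidants had 5 of 10 above 0, led by Maob (0.22), Cyba (0.31) and Xdh (-0.15). Of the glucocorticoid-induced genes 4 of 12 were above 0, with a median of -0.13 that was 0.10 without KO replicate 1, 0.05 without WT replicate 2, -0.42 without KO replicate 2 and -0.31 without WT replicate 3. They were led by Klf9 (-0.25), Klf15 (-0.22) and Per1 (-0.17). Klf9 had an unadjusted p of 0.0177 in edgeR's quasi-likelihood test (adjusted p = 0.989).

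Nnt, the mitochondrial transhydrogenase that makes NADPH for glutathione and thioredoxin, is named after its values were seen. It is known to carry a deletion of several exons in the C57BL/6J substrain. Nnt had 546, 849 and 848 CPM in KO replicates 1, 2 and 3, against 873, 843 and 297 CPM in WT replicates 1, 2 and 3. WT replicate 3 and KO replicate 1 were low, and the other 4 libraries were nearly equal. The log2 difference was 0.16 with all libraries and -0.20 without WT replicate 3. Whether Nnt carried the deletion in any animal was not tested, and its part in the antioxidant genes was not tested.

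**Figure D5:**
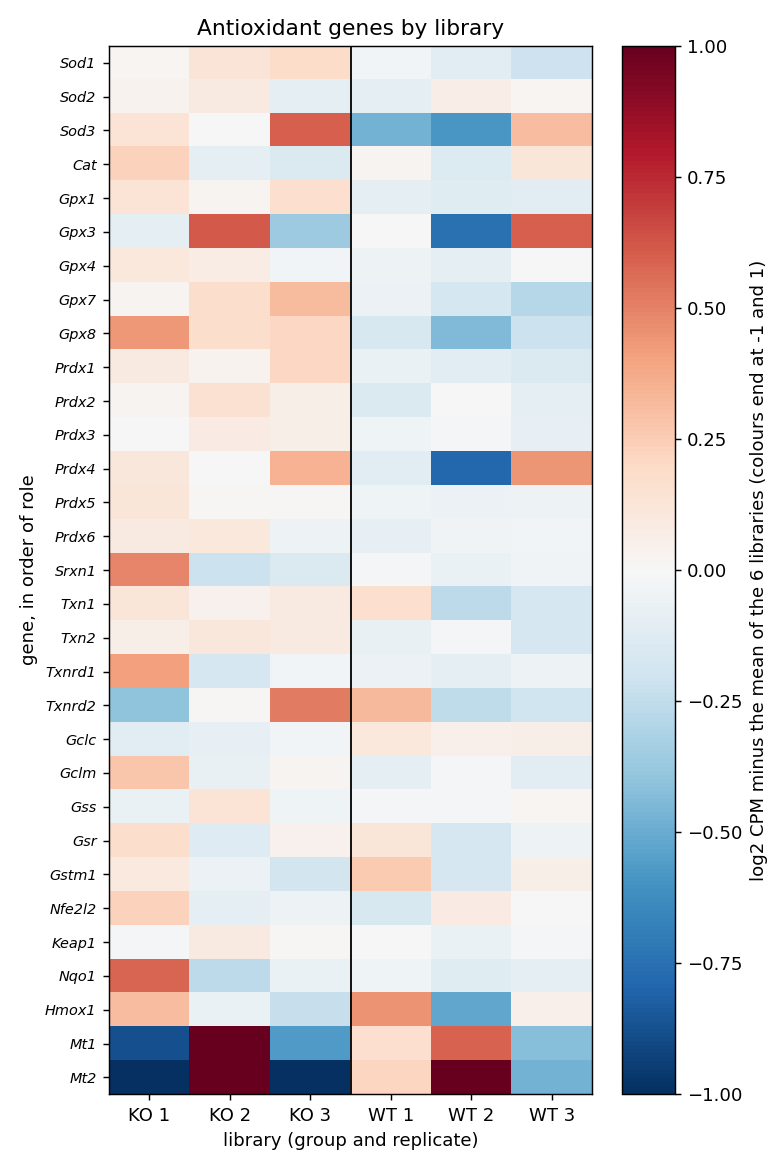
Log2 CPM of each tested member (rows, in order of role) in each library (columns, KO left of WT), minus the mean of the 6 libraries. Red is higher and blue lower; most rows are pale, Nqo1, Srxn1, Txnrd1 and Gclm are red in KO replicate 1, and Mt1 and Mt2 are red in replicate 2 of both genotypes.

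Other cell types of the tissue were followed by marker genes. Markers of fibroblasts summed to 813 to 936 CPM in KO and 740 to 1066 CPM in WT, those of endothelium to 345 to 389 CPM in KO and 371 to 399 CPM in WT, and those of adipocytes to 284 to 322 CPM in KO and 262 to 346 CPM in WT. These ranges overlapped between genotypes. Markers of fast fibres summed to 13051 to 13892 CPM in KO and 11119 to 12592 CPM in WT, without overlap, and their part in the members' values was not tested. Those of slow fibres were higher, at 42906 to 46776 CPM in KO and 40406 to 47538 CPM in WT, and overlapped between genotypes. In bulk tissue fewer cells of a type and less RNA per cell cannot be told apart.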

How the data were processed

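The authors deposited 1 table of raw read counts, whole numbers by Ensembl ID and library, together with a log2 fold change, a log2 abundance and p-values that the authors computed under edgeR's column names, per the file headers. Per the labels' protocols RNA was taken with Trizol and libraries made with the TruSeq RNA kit. TopHat 1.3.3, edgeR and mm10 are named in the submitters' processing notes. The sources used here give neither the read counter, nor its annotation release, nor its rule for multi-mapped reads.

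Of 37506 rows, 29 repeated an ID and were merged. No row stood for unassigned reads. Genes were filtered with filterByExpr, scaled with TMM and tested two-sided on genotype with edgeR 4.0.16 (robust glmQLFit and glmQLFTest) in R 4.3.3, with adjustment over all 13848 genes at 0.05. SE is the difference divided by the square root of F. Positions and exonic lengths came from GENCODE M21 (GRCm38, which mm10 names). Alternatives were RLE, upper-quartile and no scaling, 2 other filters, DESeq2 1.42.0, limma 3.58.1 voom, a replicate block, an offset for exonic length and leaving out each library. Replicate pairs differed by more than sampling noise (chi-square per gene 3.46 to 9.57), so all 6 were kept as separate libraries. This spread cannot tell separate animals from separate preparations of the same material.

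The members and lists were chosen with earlier results of these data known. Named were all 32 members, Esr1 and, of each list of other pathway genes, the 3 with the smallest unadjusted p; others are marked in the text. With 3 libraries against 3 an exact permutation test cannot go below 0.1, and none was run.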

Additional observations from a re-analysis of the deposited data

How the results depend on the processing

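The counts of members called stayed at 0 in all 15 alternatives. Genes called over all genes were 0 with all settings as given, 19 without the filter on low counts, 3 in DESeq2 and 0 to 3 when leaving out each library. Without the filter 23953 genes were tested with a median of 95812 total degrees of freedom, against 13848 genes and 16.6 with it; the cause of none of these counts was tested. The members' median was 0.10 and ran from 0.08 to 0.16 when leaving out each library, with 22 to 28 members above 0. Of the 31 tested members 16 kept their direction throughout. Leaving out each library gave log2 differences from -0.03 to 0.07 for Sod2, -0.12 to 0.07 for Cat, -0.20 to 0.01 for Gstm1, -0.05 to 0.12 for Nfe2l2, -0.24 to 0.22 for Hmox1, -0.28 to 0.43 for Gpx3, -0.04 to 0.56 for Prdx4, -0.14 to 0.25 for Srxn1, -0.03 to 0.28 for Txnrd1, -0.16 to 0.31 for Txnrd2, -0.01 to 0.14 for Gsr, -0.05 to 0.06 for Gss, -0.08 to 0.38 for Nqo1, -0.88 to 0.34 for Mt1 and -1.58 to 0.39 for Mt2. Mt1 turned to -0.21 and Hmox1 to 0.01 in limma voom, and Mt1 to -0.03 and Cat to -0.01 with the offset for exonic length. With the replicate number as a block, 0 genes were called, 25 members were above 0 with a median of 0.10, and Mt1 was -0.11. Same-numbered libraries correlated in their deviations at -0.01, 0.17 and 0.03 for replicates 1, 2 and 3, so the numbers were not read as pairs. Without the filter Esr1 passed (adjusted p = 0.000142) and so did Ephx1. At this depth Gsta3, Gpx7 and Sod3 could not show moderate changes.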
